A study of Mus musculus with 6 samples.

Results

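A set of 7 genes of sodium and calcium transport across the cell membrane are described, taken by symbol from a table of 18951 genes: the sodium pump beta subunit genes Atp1b1, Atp1b2 and Atp1b3, the pump regulator genes Fxyd1 and Fxyd5, and the sodium-calcium exchanger genes Slc8a1 and Slc8a3. All 7 were found in the table. The measurements are RNA-seq read counts from 6 cultures labelled as heart muscle cells of C57BL/6J mice at postnatal day 1, of which 3 had received a scrambled siRNA (si-Control) and 3 an siRNA against Rbm22 (si-Rbm22), a spliceosome gene. Per the labels' protocols, cultures were used when over 97.5% of cells stained for cardiac troponin T, and RNA was taken 48 h after transfection. No genetic alteration or further agent is named for either group, and the labels do not say whether replicates came from separate isolations, so the spread behind each p-value is that between these libraries and may be technical.

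The sodium pump moves sodium out of the cell and potassium in at the cost of ATP. Its catalytic alpha subunit, whose genes are not analysed here, reaches the membrane together with a glycosylated beta subunit, and small FXYD proteins that sit beside the pair tune the affinity and rate of the pump. In heart muscle the sodium gradient drives the sodium-calcium exchanger, which removes calcium after each beat, and pump inhibition by cardiac glycosides strengthens contraction through this link.

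The libraries labelled si-Control held few cardiomyocyte transcripts, which bears on every comparison below. The 10 cardiomyocyte markers summed to 40.4 to 46.3 CPM (counts-per-million, scaled as described under processing) in the si-Control-labelled libraries and to 23260 to 36750 CPM in si-Rbm22, and 5 of the 10 (Myl2, Myl7, Nppa, Pln and Mybpc3) had 0 reads in all 3 si-Control-labelled libraries. Nearly all of the si-Control-labelled sums came from Tnnt2, at 39.0, 43.2 and 44.4 CPM. The 8 markers of skeletal muscle precursors ran the other way, from 583.1 to 595.2 CPM in the si-Control-labelled libraries to between 0.213 and 0.472 CPM, with Myf5, Myod1 and Cdh15 at 0 reads in all 3 si-Rbm22 libraries. Rbm22 itself had 798, 916 and 774 reads in the si-Control-labelled libraries and 533, 466 and 491 in si-Rbm22, where it was lower (23.2 ± 1.79 and 13.5 ± 0.892 CPM; SD, n = 3 each; edgeR adjusted p = 4.22e-06). Effects of the siRNA and of this difference in content cannot be told apart, and no comparison is possible without the libraries in doubt, because they are all 3 controls. In bulk RNA, fewer cells of a type and less RNA per cell cannot be told apart either. Library totals ranged from 34269042 to 37344860 reads.

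Of the 7 genes, 5 were higher in si-Rbm22 (Slc8a1, Fxyd1, Atp1b1, Atp1b2 and Atp1b3), Fxyd5 was lower, and Slc8a3 had too few reads to enter the test. A call is an adjusted p under 0.05 by edgeR's quasi-likelihood test (Benjamini-Hochberg over all genes tested). By the same rule 82.0% of the 14621 genes tested were called, 43.1% higher and 38.9% lower, so 6 calls among 6 tested genes stand against a background in which most genes differed. The groups did not overlap for these 6 genes, as for 84.2% of all genes tested. The median log2 fold change of the 6 tested members was 2.62, against 0.05 over all genes tested. The scaling sets the latter near no change, because it assumes that most genes do not differ, so it is not an independent background. With 82.0% of genes called, that assumption is not secured, which matters most for the smaller changes. The 5 rises ranged from 1.67-fold for Atp1b3 to 88.2-fold for Slc8a1, and the fall of Fxyd5 was 1.52-fold.

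**Figure D1:**
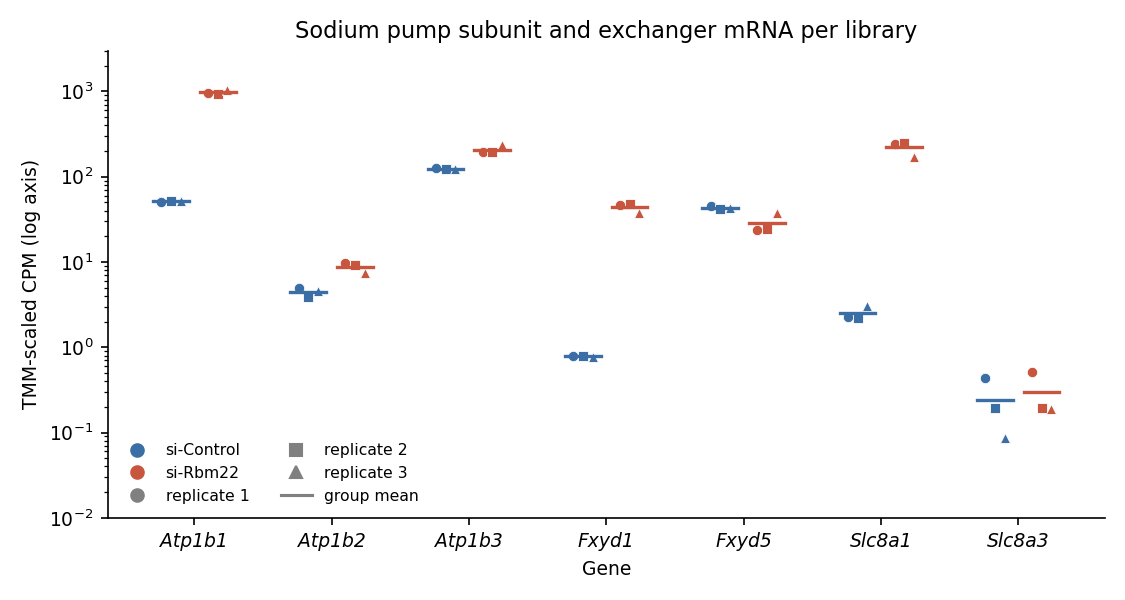
TMM-scaled CPM of each gene (log axis) in the 3 si-Control-labelled libraries (blue) and the 3 si-Rbm22 libraries (red), with marker shapes for replicate numbers and bars for group means. Slc8a1, Fxyd1 and Atp1b1 are far apart between the groups, Atp1b2 and Atp1b3 differ by less than 2-fold, Fxyd5 is lower in si-Rbm22, and the points of Slc8a3 overlap.

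Of the 7 genes, 6 had promoter sequences in RefSeq (GRCm38.p6), Atp1b2 being the exception. The 250 bases before the start are shown for Atp1b1, whose share of the beta subunits rose, and for the exchanger pair, of which one rose and the other had few reads in every library. Capitals mark matches, on either strand, to 6 motifs: the GC box GGGCGG, the TATA box TATAAA, the CCAAT box CCAAT, the GATA motif AGATAA, the MCAT motif CATTCC and the E-box CAGCTG. The motifs do not overlap in these windows.
Atp1b1 (chr1:164458356-164458605, minus strand): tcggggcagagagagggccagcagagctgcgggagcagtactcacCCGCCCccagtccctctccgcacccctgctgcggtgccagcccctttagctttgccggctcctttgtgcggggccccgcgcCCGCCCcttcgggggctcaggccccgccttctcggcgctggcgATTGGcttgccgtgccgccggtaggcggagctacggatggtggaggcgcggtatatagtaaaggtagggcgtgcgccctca
Slc8a1 (chr17:81738388-81738637, minus strand): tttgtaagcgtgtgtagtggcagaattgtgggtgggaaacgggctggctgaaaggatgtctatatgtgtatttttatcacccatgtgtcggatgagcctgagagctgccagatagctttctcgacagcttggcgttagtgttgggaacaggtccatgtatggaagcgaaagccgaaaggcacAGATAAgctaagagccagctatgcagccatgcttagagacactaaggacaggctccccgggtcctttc
Slc8a3 (chr12:81333181-81333430, minus strand): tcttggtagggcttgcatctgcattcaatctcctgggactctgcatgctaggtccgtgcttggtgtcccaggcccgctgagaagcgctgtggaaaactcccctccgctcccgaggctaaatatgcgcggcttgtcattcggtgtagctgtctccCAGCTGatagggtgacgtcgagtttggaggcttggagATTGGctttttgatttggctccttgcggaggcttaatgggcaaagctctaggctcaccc

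In these windows Atp1b1 had 2 GC boxes and 1 CCAAT box at 70.4% GC, Slc8a1 had 1 GATA motif at 50.4% GC, and Slc8a3 had 1 CCAAT box and 1 E-box at 56.0% GC. No window of these 3 genes held the TATA box or MCAT letters. Among all 32851 RefSeq windows of this length, 32.7% held the GC box, 33.8% the CCAAT box, 9.99% the GATA motif, 13% the E-box, 12.4% the TATA box and 12.6% the MCAT motif. None of the 6 motifs was in the windows of Fxyd1 and Fxyd5, but neither window is purely sequence upstream of the annotated gene. The Fxyd1 window lay inside the annotated span of Fxyd1. Of the 250 bases of the Fxyd5 window, 219 were in exons of Fxyd5 or Fxyd7. For Atp1b3, one of its start sites had 5 GC boxes and the other, whose window lay inside the annotated span of Atp1b3, none. A match to these letters is a description and not a binding site.

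Atp1b1 encodes the beta subunit that predominates in heart muscle (ENSMUSG00000026576; GRCm38 chromosome 1, 164437109 to 164458355, minus strand). It had 1823, 1893 and 1801 reads in the si-Control-labelled libraries and 35423, 33941 and 39267 in si-Rbm22. Every si-Rbm22 library was therefore far above every si-Control-labelled library, and the spread within each group was small beside the gap. The level went from 51.5 ± 1.01 CPM to 985.3 ± 53.8 CPM (SD, n = 3 each), a 19.1-fold rise (log2 fold change 4.26, SE 0.066, edgeR adjusted p = 1.33e-15). By fitted fold change, 1665 of the 14621 genes tested stood higher. Exons of Nme7 overlap Atp1b1 on the other strand, and the strand setting of the counting is not given in the sources used here, so reads could be exchanged between them. Nme7 had 727 to 840 reads in the si-Control-labelled libraries and 346 to 396 in si-Rbm22, a change in the other direction (log2 fold change −1.12, SE 0.102, edgeR adjusted p = 1.61e-07).

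Atp1b3, a broadly expressed beta subunit gene (ENSMUSG00000032412; chromosome 9, 96332655 to 96364442, minus strand), changed much less. Its counts were 4637, 4444 and 4255 in the si-Control-labelled libraries and 7110, 6926 and 8837 in si-Rbm22, the last being si-Rbm22 replicate 3. The lowest si-Rbm22 library was above the highest si-Control-labelled library. The mean was 124.3 ± 3.13 CPM against 207.3 ± 24.3 CPM (mean ± SD over 3 libraries each; edgeR adjusted p = 6.61e-07, log2 fold change 0.74 with SE 0.075).

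Atp1b2, first known as an adhesion molecule on glia (ENSMUSG00000041329; chromosome 11, 69599736 to 69605942, minus strand), was low throughout. It had 180, 140 and 160 reads in the si-Control-labelled libraries and 354, 335 and 277 in si-Rbm22. The mean level was 4.48 ± 0.566 and 8.78 ± 1.23 CPM (SD, n = 3 each), a rise of 0.97 on the log2 scale (SE 0.166, edgeR adjusted p = 8.93e-05). The order of libraries within si-Rbm22 differed from that of Atp1b3: replicate 3 was the lowest of the 3 for Atp1b2 and the highest for Atp1b3. Of 7 listed Schwann markers 6 were in the table, and their summed level was 27.2 to 30.5 CPM in the si-Control-labelled libraries and 94.0 to 102.8 CPM in si-Rbm22, of which 3 rose, Mbp and S100b among them, and Cnp fell, with Sox10 at 0 reads in all si-Control-labelled libraries. Their part in the Atp1b2 result was not tested.

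Per kilobase of exon, the leading beta subunit changed from Atp1b3 to Atp1b1. Atp1b3 was at 52.0 ± 1.31 CPM per kb and Atp1b1 at 16.7 ± 0.327 in the si-Control-labelled libraries, against 86.8 ± 10.2 and 320 ± 17.5 CPM per kb in si-Rbm22 (SD, n = 3 each). Of the summed level of the 3 genes per kb, Atp1b1 made up 23.0%, 24.5% and 24.3% in the si-Control-labelled libraries and 79.0%, 78.7% and 77.2% in si-Rbm22. Atp1b3 made up 74.5% ± 0.707 against 21.2% ± 1.06 (SD, n = 3 each). Atp1b2 never made up more than 1.71%. The summed level of the 3 genes was 178.5 to 183.2 CPM in the si-Control-labelled libraries and 1145 to 1289 CPM in si-Rbm22.

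The ratio of Atp1b1 to Atp1b3 reads needs no scaling between libraries. It was 0.393, 0.426 and 0.423 in the si-Control-labelled libraries and 4.98, 4.90 and 4.44 in si-Rbm22, so that Atp1b3 gave more reads in each of the former and Atp1b1 in each of the latter. The mean log2 ratio differed by 3.53, an 11.5-fold change. All 3 libraries of each group lay on their own side (two-sided exact permutation test p = 0.1, and 0.1 adjusted over the 3 ratios tested), which is the smallest p that 3 against 3 libraries allow.

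**Figure D2:**
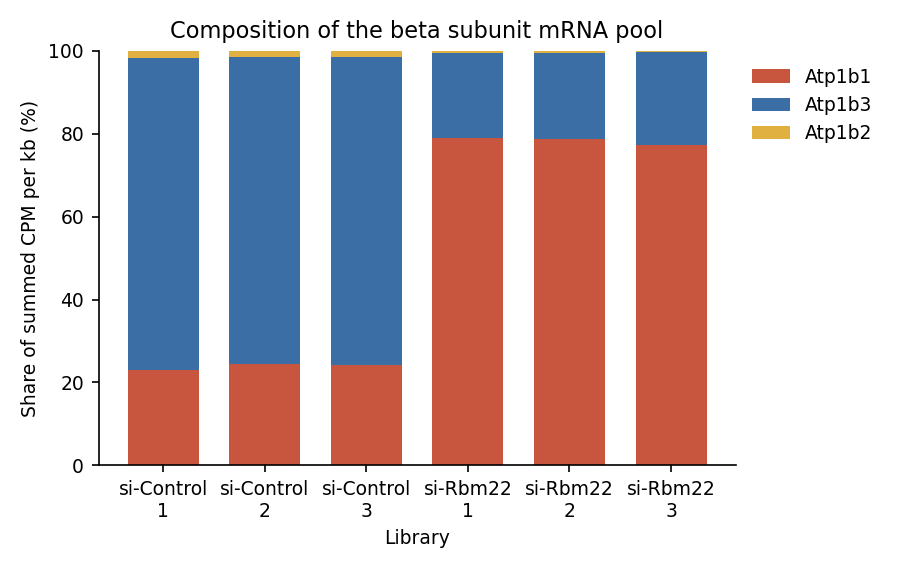
Share of each beta subunit gene in the summed CPM per kb of Atp1b1, Atp1b2 and Atp1b3 (percent), one bar per library. Atp1b1 fills 23.0% to 24.5% of the bar in the si-Control-labelled libraries and 77.2% to 79.0% in si-Rbm22.

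Fxyd1 encodes phospholemman, which restrains the pump of heart and skeletal muscle until protein kinases phosphorylate it (ENSMUSG00000036570; chromosome 7, 31051678 to 31057199, minus strand). It had 29, 29 and 27 reads in the si-Control-labelled libraries and 1710, 1731 and 1409 in si-Rbm22. Its level was low and even in the former, and si-Rbm22 replicate 3 was the lowest of its group. The means were 0.792 ± 0.0126 CPM and 44.1 ± 5.74 CPM (SD, n = 3 each), a 55.4-fold rise (log2 fold change 5.79, SE 0.146, edgeR adjusted p = 1.52e-13). Because the former group held few reads, the ratio of reads is also given with its 95% counting interval, 55.5 (44.8 to 69.7).

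Fxyd5 encodes dysadherin, an FXYD protein with a long extracellular part that is found mainly in epithelia and other nonmuscle cells (ENSMUSG00000009687; chromosome 7, 31032722 to 31042481, minus strand). It had 1641, 1515 and 1482 reads in the si-Control-labelled libraries and 866, 885 and 1397 in si-Rbm22. The groups did not overlap after scaling, but si-Rbm22 replicate 3, at 37.2 CPM, stood closer to the lowest si-Control-labelled library (41.8 CPM) than to the other si-Rbm22 libraries (23.7 and 24.6 CPM). The mean fell from 43.2 ± 1.83 to 28.5 ± 7.57 CPM (mean ± SD over 3 libraries each; edgeR adjusted p = 0.00639, log2 fold change −0.60 with SE 0.158). Without si-Rbm22 replicate 3 the log2 fold change was −0.85.

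The ratio of Fxyd1 to Fxyd5 reads was 0.018, 0.0195 and 0.0185 in the si-Control-labelled libraries and 1.97, 1.96 and 1.01 in si-Rbm22. Fxyd5 thus gave nearly all reads of the pair in the former group, and Fxyd1 as many or more in the latter. The mean log2 ratio went from −5.75 ± 0.058 to 0.65 ± 0.555 (SD, n = 3 each; two-sided exact permutation test p = 0.1, adjusted 0.1, the smallest possible).

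Fxyd1 and Fxyd5 lie on the same strand of chromosome 7 with 9196 bases between them, filled by Fxyd7 apart from 31 bases on its Fxyd5 side and 210 bases on its Fxyd1 side. The genes from Usf2 to Hpn were looked at for context, a window chosen after the values were seen. Fxyd7, a pump regulator of neurons, had 0 reads in every si-Control-labelled library and 18, 5 and 0 in si-Rbm22. Fxyd3, an epithelial family member, had 2, 0 and 1 reads against 35, 50 and 75, with a read ratio of 51.9 (95% counting interval 17.4 to 254) and an edgeR adjusted p of 3.45e-06. Part of Fxyd3 overlaps Lgi4 on the other strand, which makes both uncertain, and Lgi4 did not pass (edgeR adjusted p = 0.089).

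Of the flanking genes, some were higher, others did not pass and Fam187b was not tested. Lsr, a tight junction gene of epithelia, had a read ratio of 554 (95% counting interval 269 to 1380) and Hpn, a membrane protease gene, one of 20.9 (11.2 to 44.3). Fam187b, with 0 reads in the si-Control-labelled libraries, had 18, 9 and 35 in si-Rbm22. By reads it was at least 20.1-fold higher, against a floor of 3 counts over the group, but it had too few reads to enter the test. At one end of the window, Usf2, a transcription factor gene, was at 35.7 ± 2.57 and 36.7 ± 2.48 CPM (SD, n = 3 each) and did not pass (edgeR adjusted p = 0.62). Fxyd5 was thus the gene of this window that passed in the lower direction.

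**Figure D3:**
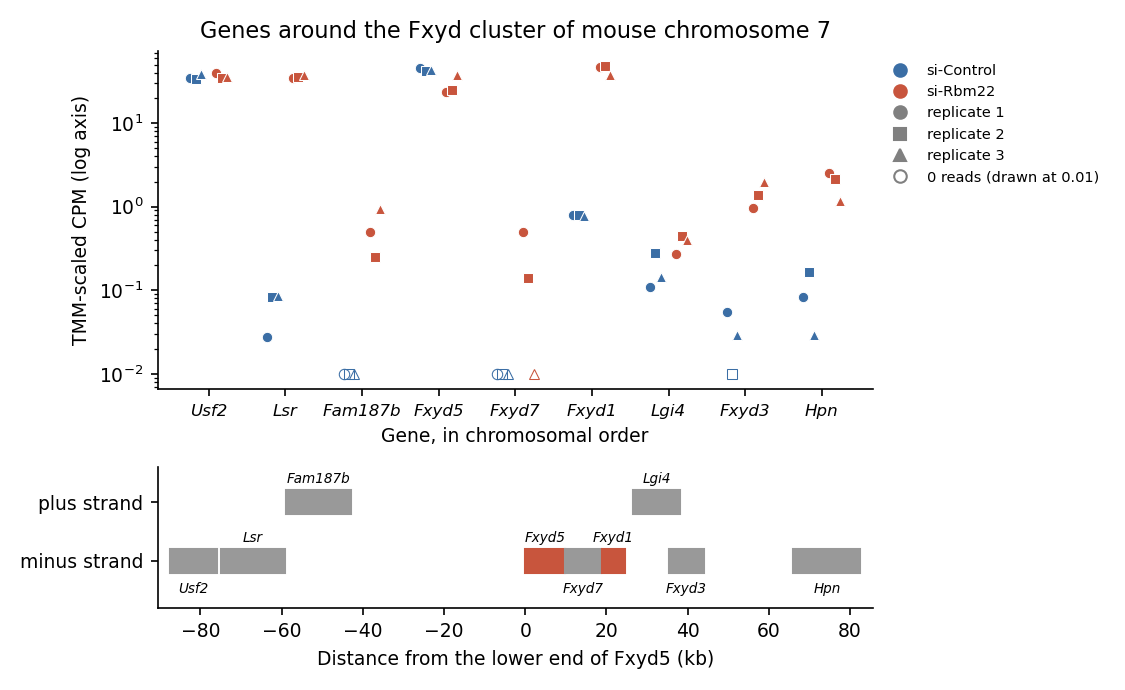
Top, TMM-scaled CPM (log axis) in each library for the genes from Usf2 to Hpn that are in the table, with open symbols at the bottom for 0 reads. Bottom, their positions in kb from the lower end of Fxyd5 on both strands, with Fxyd1 and Fxyd5 in red. Fxyd5 is lower and Fxyd1 higher in si-Rbm22, while Usf2 overlaps between the groups.

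Slc8a1 encodes the sodium-calcium exchanger of heart muscle, NCX1 (ENSMUSG00000054640; chromosome 17, 81373105 to 81738377, minus strand). It had 83, 80 and 105 reads in the si-Control-labelled libraries and 8893, 8973 and 6402 in si-Rbm22. All si-Rbm22 libraries were far above the others, with replicate 3 the lowest of the 3. The level went from 2.51 ± 0.451 CPM to 220.9 ± 43.7 CPM (SD, n = 3 each), an 88.2-fold rise (log2 fold change 6.46, SE 0.21, edgeR adjusted p = 2.17e-08). With the read ratio at 88.1, the 95% counting interval was 78.1 to 99.8. The annotation places Gm11096 and an antisense transcript over Slc8a1 on the other strand. Gm11096 had at most 4 reads in any library.

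Slc8a3 encodes NCX3, the exchanger of skeletal muscle and brain (ENSMUSG00000079055; chromosome 12, 81197915 to 81333180, minus strand). It had 16, 7 and 3 reads in the si-Control-labelled libraries and 19, 7 and 7 in si-Rbm22. The groups overlapped, and replicate 1 was the highest library in each. With so few reads it did not pass the filter on low counts. The 95% counting interval of the read ratio (1.24) ran from 0.717 to 2.15, so a difference was not detectable at this depth. Fitted without the filter, the log2 fold change was 0.28 (edgeR adjusted p = 0.747).

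The ratio of Slc8a1 to Slc8a3 reads, with 0.5 reads added to each, was 5.06, 10.7 and 30.1 in the si-Control-labelled libraries and 456, 1200 and 854 in si-Rbm22. Slc8a1 gave more reads than Slc8a3 in every library of both groups. The mean log2 ratio differed by 6.04 (two-sided exact permutation test p = 0.1, adjusted 0.1, the smallest possible), and its spread of 1.29 among the si-Control-labelled libraries (SD, n = 3) came with 3 to 16 reads of Slc8a3. The difference was 5.43 without si-Control replicate 1 and 6.72 without si-Control replicate 3.

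Ordered by level per kb of exon, the si-Control-labelled libraries ran Atp1b3, Atp1b1, Fxyd5, Atp1b2, Fxyd1, Slc8a1 and Slc8a3, and si-Rbm22 ran Atp1b1, Atp1b3, Fxyd1, Slc8a1, Fxyd5, Atp1b2 and Slc8a3. In CPM per kb, Fxyd5 was at 10.3 ± 0.436 and 6.79 ± 1.81, Fxyd1 at 0.363 ± 0.00576 and 20.2 ± 2.62, and Slc8a1 at 0.133 ± 0.024 and 11.7 ± 2.33 (SD, n = 3 each, si-Control first). Neighbours in this order did not overlap between libraries of a group, the closest being Slc8a1 and Fxyd5 in si-Rbm22, whose nearest values were 9.07 and 8.88 CPM per kb, both in replicate 3. Levels across genes depend on the length used. The joined exons of Fxyd1 span 2186 bases but its longest transcript 668, and by longest transcript Fxyd1 and Atp1b2 stood together at 1.19 CPM per kb in the si-Control-labelled libraries. On that scale Slc8a1 (12.0 ± 2.37) and Fxyd5 (9.50 ± 2.53 CPM per kb, SD, n = 3) lay within their spread of each other in si-Rbm22.

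The 3 si-Rbm22 libraries were not alike, and the members fell to both sides. Replicate 3, relative to the mean of the other two, had 0.651 of the summed cardiomyocyte marker level and 1.10 of the epicardial and mesothelial marker level. On the same scale Slc8a1 was at 0.693, Atp1b2 at 0.778 and Fxyd1 at 0.792, whereas Atp1b1 was at 1.10, Atp1b3 at 1.22 and Fxyd5 at 1.54. Of the 6 tested members, 3 were thus lower in the library with fewer cardiomyocyte transcripts and 3 were higher, and Slc8a3, with 7 to 19 reads in these libraries, was at 0.523. This describes 1 library against 2, without a test. Myh6 was the largest single part of the cardiomyocyte sum, at 18420, 18370 and 10240 CPM in si-Rbm22 replicates 1, 2 and 3. Tnni3 of the same list fell less in replicate 3, at 937.3, 1001 and 831.2 CPM.

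Markers of other cell types also differed between the groups. In CPM summed over each list, the si-Control-labelled libraries were at 0.461 to 0.772 for 8 endothelial markers, 50.2 to 53.7 for 8 epicardial and mesothelial markers and 1.74 to 3.14 for 8 macrophage markers. The si-Rbm22 libraries were at 268.6 to 315, 2365 to 2596 and 71.3 to 83.4 CPM. Tie1, Emcn, Upk3b, Upk1b, Gpm6a, Adgre1 and C1qb had 0 reads in all si-Control-labelled libraries. Most of the epicardial and mesothelial sum in those libraries came from Msln, at 46.93, 45.25 and 47.6 CPM. Fibroblast markers (8 genes, 2 higher and 5 lower) went from between 21410 and 23250 to between 5623 and 5804 CPM, with Tcf21 at 0 reads in the si-Control-labelled libraries, and 8 smooth muscle and pericyte markers (4 higher and 4 lower) from between 3357 and 3388 to between 2155 and 2696 CPM. The part of these cell types in the results for the 7 genes was not tested.

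**Figure D4:**
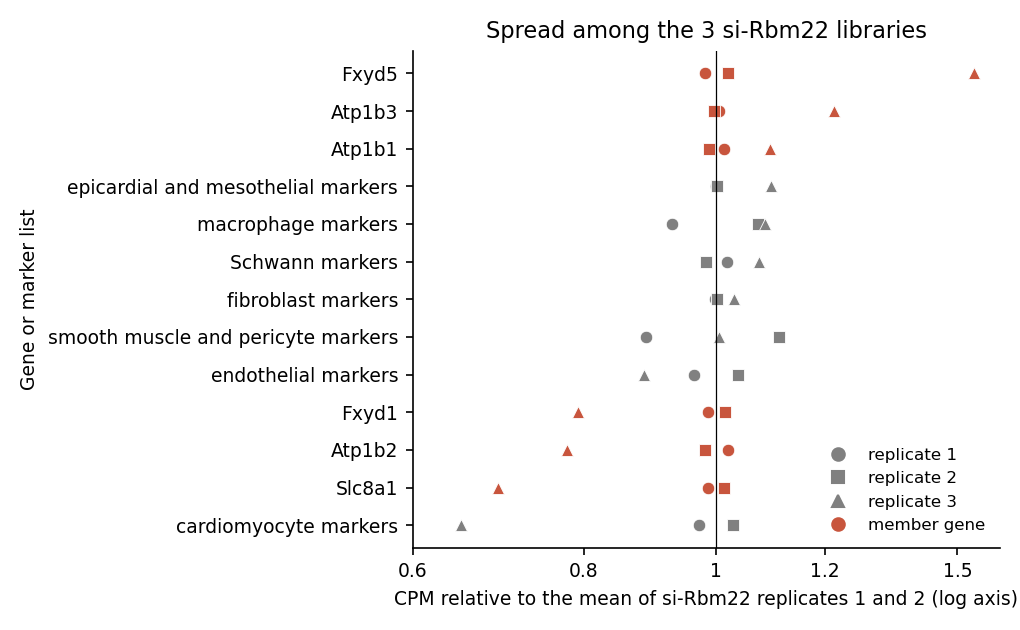
CPM in each si-Rbm22 library relative to the mean of replicates 1 and 2 (log axis), for 6 members (red) and the summed levels of 7 marker lists (grey). Slc8a3 and the skeletal muscle precursor markers are left out because they had few reads. Replicate 3 is at 0.693 for Slc8a1 and 0.651 for the cardiomyocyte markers, and at 1.54 for Fxyd5.

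Other genes of sodium, calcium and linked ion transport, with their anchors and regulators, moved in both directions. Of 53 such genes in 4 lists, 51 were in the table and 43 were tested, of which 27 were higher, 11 lower and 5 not called (median log2 fold change 0.78). Over all genes tested 43.1% were higher and 38.9% lower, with a median of 0.05, and the counts by list are likewise given as descriptions. The fuller FXYD and P-type pump family gave 2 tested genes, both higher: Fxyd6, at least 674.6-fold higher with 0 reads in the si-Control-labelled libraries and 18.9 ± 1.27 CPM (SD, n = 3) in si-Rbm22, and Fxyd3, described above. Fxyd2, Fxyd7 and Atp12a had 0 reads in the si-Control-labelled libraries and a mean of at most 0.52 CPM in si-Rbm22. Atp1b4 and Atp4a had at most 2 reads in any library.

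Of 10 other calcium exchanger and calcium pump genes, 3 were higher, 3 lower and 1 not called (Slc24a5), with 3 too low to test. Atp2b4, a plasma membrane calcium pump gene, fell from 323.2 ± 14.6 to 17.6 ± 2.10 CPM (mean ± SD over 3 libraries each; edgeR adjusted p = 1.84e-14, log2 fold change −4.20 with SE 0.084), in the direction opposite to Slc8a1. Its relative Atp2b1 rose by 0.66 (SE 0.057). The potassium-dependent exchanger gene Slc24a2 had a read ratio of 192 (95% counting interval 34 to 7610), from 1 read in the si-Control-labelled libraries. Slc24a3 and the mitochondrial exchanger gene Slc8b1 fell, to 0.50 and 0.615 of their level, and Slc24a4 rose (read ratio 21.9, interval 5.72 to 186). The last 3 were singled out after their values were seen.

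A list of 14 genes of cation-coupled transport, among them 3 potassium-chloride carriers and the scaffold gene Slc9a3r1, had 8 higher, 4 lower and 2 not called, Slc6a6 among them. Slc4a4, a sodium bicarbonate carrier gene, rose by 4.36 on the log2 scale (SE 0.103), about as far as Atp1b1. Slc9a3r1 rose by 2.37 (SE 0.059). Slc4a8, another sodium bicarbonate carrier gene, went from 35.3 ± 2.16 to 0.815 ± 0.172 CPM (mean ± SD over 3 libraries each; edgeR adjusted p = 2.18e-13, log2 fold change −5.43 with SE 0.142).

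Pump anchors and regulators gave 14 higher, 4 lower and 2 not called (Agrn and Nkain2) of 20. Nkain4 and Nkain3, whose products bind the pump beta subunit, had 0 reads in the si-Control-labelled libraries and were at least 559.1-fold and 323.8-fold higher. Nkain1 of the same family fell by 1.02 on the log2 scale (SE 0.173), and Nkain2 did not pass. Prkca, a kinase that phosphorylates phospholemman, fell by 1.32 on the log2 scale (SE 0.062). Nkain1 and a further 6 genes of this list were singled out after their values were seen. Prkce, another protein kinase C gene, rose by 1.30 (SE 0.087), and Prkaca, the catalytic subunit gene of protein kinase A, fell by 1.40 (SE 0.075). Ppp1r1a, a phosphatase inhibitor gene, was at least 71.4-fold higher, Zdhhc5, which palmitoylates phospholemman, rose by 0.34 (SE 0.067), and Ank2, which anchors pump and exchanger, rose by 2.12 (SE 0.183). Cav3, the caveolin gene of muscle, had a read ratio of 1290 (95% counting interval 590 to 3500).

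**Figure D5:**
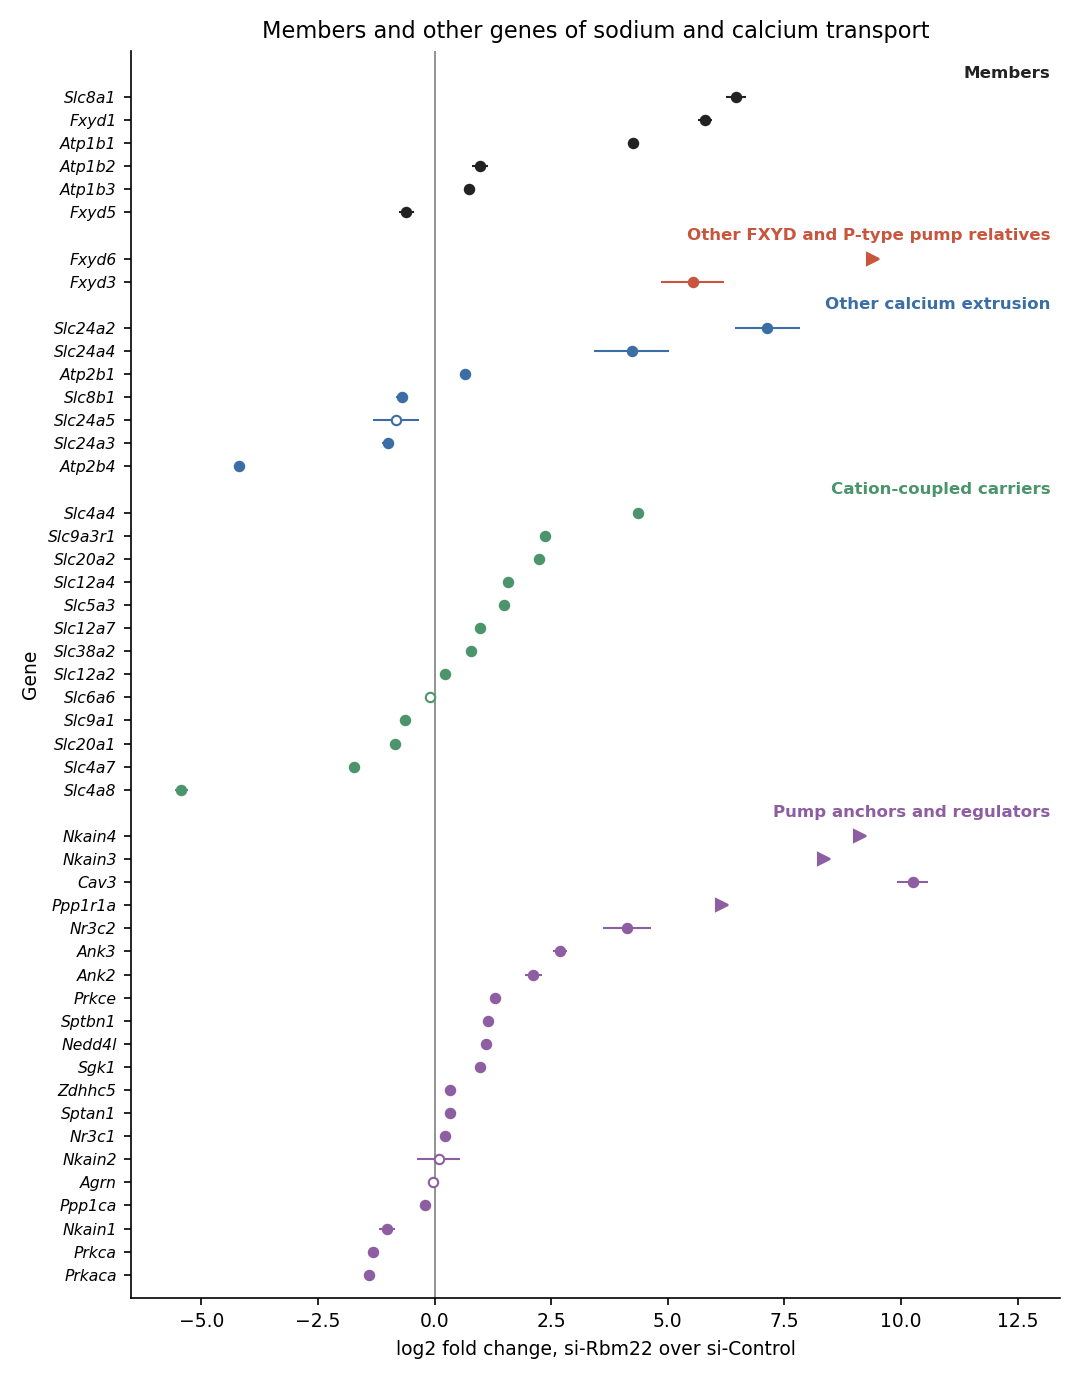
Log2 fold change of si-Rbm22 over si-Control for the 6 tested members and other tested genes, grouped by list. Points carry 1 SE, open points did not pass, and triangles are lower bounds for genes with 0 reads in the si-Control-labelled libraries. Members run from 6.46 (Slc8a1) to −0.60 (Fxyd5).

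For each of the 6 tested members, the 2 protein-coding genes with the nearest profile were taken by the root mean square difference of mean-centred log2 CPM over the 6 libraries, among 11027 genes with at least 5 CPM on average. Nearest to Slc8a1 were Slc2a4, the insulin-responsive glucose carrier gene (distance 0.145), and the calcium store gene Casq2 (0.2). Fxyd1 was nearest to Txlnb (0.104) and Stxbp6 (0.124), and Atp1b1 to the matrix gene Npnt (0.111) and the signalling inhibitor gene Cish (0.117). Next to Atp1b2 stood Tuba4a (0.0849) and Ndufb8 (0.0859), next to Atp1b3 the ferritin gene Ftl1 (0.0249), uncertain because it has near-identical copies, and Ccn1 (0.0378), and next to Fxyd5 Igfbp7 (0.0755) and Yipf2 (0.0861). Slc2a4 shared the lower value in si-Rbm22 replicate 3, at 75.1, 74.8 and 48.7 CPM, and Igfbp7 the higher one, at 203, 207.9 and 271.6 CPM. With 2 groups of 3 libraries, such likeness measures mainly the size of the group difference.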

How the data were processed

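Per the labels' protocols, RNA of 6 cultures was extracted with TRIzol and made into libraries with a VAHTS Universal kit. Named in the submitters' processing notes, with no version or role, are GRCm38, HISAT2, HTSeq, fastp and DESeq2. For the annotation release and strand setting, nothing is given in these sources. The authors deposited 1 table of read counts, whole numbers for 18951 genes and not normalized. GENCODE M21 (GRCm38) supplied symbols for 18856 of the gene IDs, and positions and exon lengths.

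Counts were scaled by TMM and tested with edgeR 4.0.16 in R 4.3.3 (filterByExpr, robust quasi-likelihood fit, group as the only term, Benjamini-Hochberg over all genes tested, threshold 0.05). Standard errors were taken as |log2 fold change| over the root of the F statistic. Pair ratios used log2 reads plus 0.5 and a two-sided exact permutation test. Counting intervals (95%, exact) and the floor of 3 counts over a group cover counting error only. The edgeR procedure was also run on simulated data, with both groups drawn from the si-Control means and few genes changed. Most genes differed in the real data, so the simulation checks the procedure and cannot vouch for the calls made here. Alternatives were other scalings, filters and thresholds, DESeq2 1.42.0, limma-voom (limma 3.58.1), each library left out, and a replicate block. The pathway genes named by rule were the 3 with the smallest p in each list, and those named beyond it are marked in the text as chosen after their values were seen. A few genes counted in the lists are not reported by name here. The members and lists were chosen with earlier results of these data known.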

Additional observations from a re-analysis of the deposited data

How the results depend on the processing

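The 5 rises and the fall of Fxyd5 kept their direction and their call under RLE, upper quartile and total scaling, no filter, DESeq2, limma-voom, mitochondrial transcripts left out, a threshold of 0.01 and each library left out. With at least 10 CPM in 3 libraries, Atp1b2 was not tested and the other 5 calls held. All these scalings assume that the bulk of genes, or the total, is alike between the groups, so their agreement cannot test that assumption. Over these settings and the replicate block the log2 fold change of Slc8a1 ran from 6.36 to 6.61, of Fxyd1 from 5.72 to 5.89, of Atp1b1 from 4.21 to 4.30, of Atp1b2 from 0.86 to 1.07, of Atp1b3 from 0.63 to 0.78 and of Fxyd5 from −0.85 to −0.49, where the highest adjusted p was 0.025. Slc8a3 entered 5 of the settings, at −0.10 to 0.55, and passed in none of them (lowest adjusted p = 0.447). With the replicate number as a block, 5 members were higher and 1 lower, and the log2 differences of the ratios were the same (3.53, 6.40 and 6.04), with a smallest possible exact p of 0.25. The numbers pair nothing visible, since deviations of same-numbered libraries correlated at −0.0164 to 0.00841. With a library left out, the exact p of the ratios cannot go below 0.2. The share of Atp1b1 by longest transcript was 23.9% and 78.3%. Depth limits Slc8a3, at 3 to 19 reads.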
